A study of Mus musculus with 8 samples.

Results

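The cytosolic ribosomal protein genes are the genes that encode the protein part of the ribosomes of the cytoplasm. They were chosen by name, as symbols that begin with Rps (small subunit) or Rpl (large subunit) and end in a number or a short suffix, with pseudogenes named -ps left out. The rule found 85 of the 24924 genes analysed, 32 of the small and 53 of the large subunit. It takes in the subunits Rpsa, Rplp0, Rplp1 and Rplp2 and several paralogs, and it leaves out some, such as Fau, Rack1 and Rps3a1, which belong to the same ribosome under other names. Of the 85 genes, 83 had a count in at least 1 library, and 2, Rps4l and Rpl32l, are annotated as pseudogenes in GENCODE M21.

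A ribosome joins a small subunit, which reads the mRNA, to a large subunit, which forms the peptide bonds. Most of the proteins are needed in equal numbers. Their mRNAs are short, abundant and translated together under the control of mTOR, through a run of pyrimidines at the 5′ end. Many of these genes host small nucleolar RNAs in their introns and have left processed copies across the genome, so short reads can match more than 1 place.

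RNA was sequenced as single-end reads of 75 bases from microglia, the resident macrophages of the brain, and from brain T cells, both sorted on surface markers that the labels do not name. The donors were C57BL/6 mice between 20 and 22 months old, which had received either the cytokine IL-5, at 2 µg a day over 2 days, or PBS, the buffer control. Each of the 4 groups (microglia PBS, microglia IL-5, T cells PBS, T cells IL-5) had 2 libraries. The labels do not say whether the libraries of a group came from separate animals or from pools, so p-values measure only the spread between these libraries.

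Gene counts per library ranged from 23536908 to 30423828, and levels are given as counts per 1000000 gene counts (CPM). Microglia markers summed to 62467 to 95039 CPM in microglia, against 116 to 211 CPM in T cells (16 of 16 listed genes measured). T cell markers summed to 4322 to 7588 CPM in T cells and 18.9 to 184 CPM in microglia (12 of 14 measured, without Trac and Trbc2). Microglia IL-5 replicate 1 stood apart: 25.5% of its reads lay outside annotated genes, against 15.2% to 19.8% in the other 7 libraries, and it had the fewest genes with a count, 13172 of a range up to 15330. Counts and values that it bears on most are given with and without it.

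Start sites are shown first, because a pyrimidine run at the start is the feature by which these mRNAs are known. RefSeq promoters (build GRCm38.p6) were found for 64 of the 85 genes. A run was called where C was followed by at least 4 bases, each C or T, on the gene's own strand, with its first base within 10 bases of the annotated start. A run was taken whole, so one that began farther upstream and reached into the window, as in Rps27l, did not count. Such a run was present at 39 of the 64 genes (60.9%) and at 33.1% of the 18191 genes of the table with a promoter. Below are 30 bases from 10 before the start, with the run in capitals, for 3 genes with a run and 3 without that recur in the results.
Rps6: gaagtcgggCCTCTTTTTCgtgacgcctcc
Rpl38: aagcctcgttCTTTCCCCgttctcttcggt
Rps27l: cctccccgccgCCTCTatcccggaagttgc
Rpl4: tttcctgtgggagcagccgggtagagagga
Rplp0: cgggtttcgaggaccgcctggttctcctat
Rps28: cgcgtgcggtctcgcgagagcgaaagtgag
These lie at chr4:86857348-86857377 (minus strand), chr11:114668570-114668599 (plus), chr9:66946076-66946105 (plus), chr9:64173377-64173406 (plus), chr5:115559457-115559486 (plus) and chr17:33824543-33824572 (minus). A gene without a run lacks only one that begins within those 10 bases, and the Rplp0 window holds a short pyrimidine stretch beyond them. Members with and without a run had median log2 fold changes of 0.60 (38 genes) and 0.46 (24 genes) for IL-5 against PBS in microglia, and of -0.28 and -0.14 for PBS T cells against PBS microglia. Short and long coding sequences, described further on, lay farther apart than these classes.

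Copies of these genes bear on what the counts can show. For each gene, all 75-base windows of its transcripts, the length of a read, were compared with all other annotated transcripts. A median of 47.9% of a gene's windows also occurred in another gene, 81 of 85 genes shared at least 1 window, and 24 genes shared over 70%. Rpl7a shared windows with 64 other genes. Rps27, a small subunit protein with a zinc finger, shared 98.5% of its windows, nearly all with Rps27rt, an intronless copy. The opening 75 coding bases of Rps27, Rps27rt and the paralog Rps27l (GENCODE M21) are printed because the first 2 are identical and the third is not. Capitals mark the 22 positions at which Rps27l differs from Rps27.
Rps27: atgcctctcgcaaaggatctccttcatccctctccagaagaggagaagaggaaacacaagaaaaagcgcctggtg
Rps27rt: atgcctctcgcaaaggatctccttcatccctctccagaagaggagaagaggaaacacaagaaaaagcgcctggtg
Rps27l: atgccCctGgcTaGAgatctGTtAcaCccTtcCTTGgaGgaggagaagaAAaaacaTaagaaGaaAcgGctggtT
Rps27 measured 3.96 to 8.78 CPM over the 8 libraries and Rps27rt was at 0 in all of them. Rps27l, a p53-responsive paralog, measured 162 to 815 CPM. Per kilobase of transcript, Rps27l stood 13.4 to 104 times above Rps27. The level of Rps27 is therefore uncertain, as the authors' handling of reads that match several places is not given in the sources used here.

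Levels were also set beside shared sequence, over the 83 protein-coding members with Rpl10l and Rpl26 at 0 included. The 24 genes with under 30% of windows shared had a median of 752 CPM per kilobase of coding sequence, against 393 for the 35 genes with 30% to 70% and 416 for the 24 genes above. Spearman's rho between the shared percentage and this level was -0.31 over these 83 genes, and -0.12 with the level per kilobase of transcript, as a description of points that come from the same 8 libraries. Rpl26 shared 48.9% of its windows and had no count in any library, and Rpl30 shared 65.1% and measured 0.227 to 3.74 CPM. Both encode proteins of the large subunit. Rpl34, with 30.5% shared, measured 2.86 to 9.56 CPM. Where no read was counted, counting error alone allows 3 counts, or 0.0986 to 0.127 CPM by library.

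**Figure D1:**
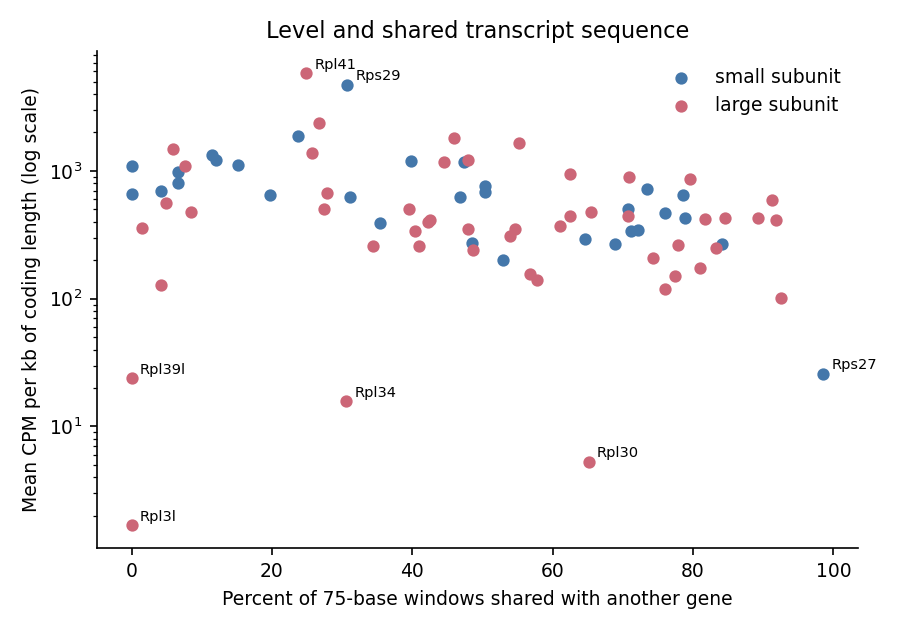
Each point is a protein-coding ribosomal protein gene with a count, by the percent of its 75-base transcript windows that another annotated gene also holds (horizontal) and its mean level over 8 libraries in CPM per kilobase of coding length (vertical, log scale). Rps27 lies at the far right, at 98.5% and 25.9 CPM per coding kilobase, while Rpl39l and Rpl3l share no window and are low.

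The most abundant genes per kilobase of transcript included Rps29, Rps14, Rplp1 and Rpl37a. Rps29, a zinc-binding protein of the small subunit head, had a mean of 2042 CPM per kilobase (SD 1453, n = 8 libraries) and ranged from 1098 to 5538. Rps14, at the platform of the small subunit, had 1266 (SD 454), Rplp1 of the stalk had 1229 (SD 820.1) and Rpl37a had 1173 (SD 345). No test compared these 4, and their SDs span both cell types and include microglia IL-5 replicate 1. The 5 least abundant were Rpl10l, Rpl26, Rpl32l, Rpl3l and Rpl30, with Rpl10l, known from the testis, and Rpl26 at 0 in every library. The length used matters to some ranks: Rpl41, which encodes the shortest protein of the ribosome (75 coding bases), ranked 10 per kilobase of transcript and highest per kilobase of coding sequence.

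Ribosomal protein genes took 1.65% and 1.58% of gene counts in PBS microglia and 2.66% and 1.90% in IL-5 microglia. They took 2.74% and 2.80% in PBS T cells and 2.25% and 2.62% in IL-5 T cells. Both PBS T cell libraries thus lay above both PBS microglia libraries, while in IL-5 mice microglia replicate 1 lay above both T cell libraries. The summed counts of large subunit genes were 1.13, 1.15, 0.971 and 1.11 times those of small subunit genes in microglia, in the order PBS 1, PBS 2, IL-5 1, IL-5 2. In T cells the ratio was 1.42, 1.41, 1.37 and 1.34. All 4 T cell libraries lay above all 4 microglia libraries in this ratio, and microglia IL-5 replicate 1 had the lowest.

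**Figure D2:**
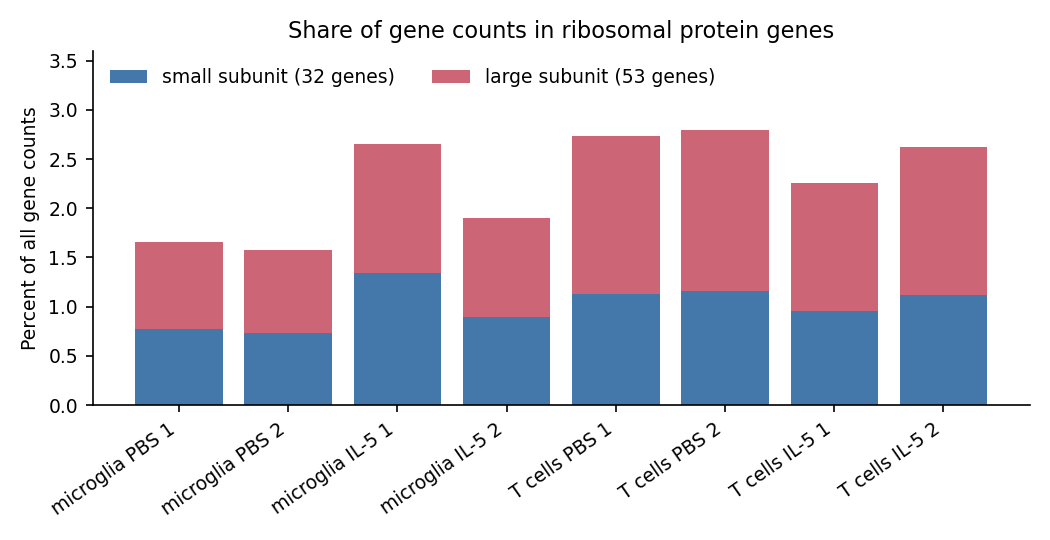
Bars give the percent of all gene counts taken by small subunit genes (blue) and large subunit genes (red, stacked) in each library, from 0. The total runs from 1.58% in microglia PBS replicate 2 to 2.80% in T cells PBS replicate 2, and microglia IL-5 replicate 1 reaches 2.66%.

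The order of the genes was nearly fixed within a cell type. Spearman's rho between libraries over 83 genes was 0.978 to 0.987 for pairs of T cell libraries and 0.806 to 0.986 for pairs of microglia libraries, and 0.457 to 0.809 across cell types. These are correlations across genes, which are not replicates. The lowest values all involved microglia IL-5 replicate 1. Of 79 genes with a mean of at least 5 CPM, 40 differed more than 2-fold between the highest and lowest microglia library, and 1 (Rpl34) did so without microglia IL-5 replicate 1. In T cells 1 gene, Rps27, did.

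Microglia IL-5 replicate 1 departed from the other libraries along coding length. Genes were put in classes of nearly equal size by the coding length of their principal transcript, short (75 to 396 bases, 28 genes), middle (399 to 564, 27 genes) and long (576 to 1257, 28 genes). This split was made after the pattern had been seen and carries no test. In microglia IL-5 replicate 1, relative to the other 3 microglia libraries, short genes stood at a median of 2.17-fold and long genes at 0.555-fold (26 genes each with a mean of at least 5 CPM). It was the highest microglia library for 26 of 28 short genes and the lowest for 19 of 27 long genes with a count. The rank correlation of coding length with this relative level was -0.81 over 78 genes. Genes that are no members, with coding lengths up to 1257 bases, gave -0.30 (5164 genes), and all 11146 genes gave 0.04. They were not matched to the members in length, and the median coding length was 453 bases for members and 1203 for all genes of the table. The other 3 microglia libraries, compared among themselves, gave -0.34 (PBS 1), 0.53 (PBS 2) and -0.27 (IL-5 2), values that depend on each other because each library is in the reference of the next. T cell libraries, each relative to the other 3 and so also dependent, gave 0.33 (PBS 1), 0.19 (PBS 2), -0.0065 (IL-5 1) and -0.57 (IL-5 2). In T cells IL-5 replicate 2 the medians were closer together, at 1.09-fold for short genes and 0.958-fold for long genes.

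**Figure D3:**
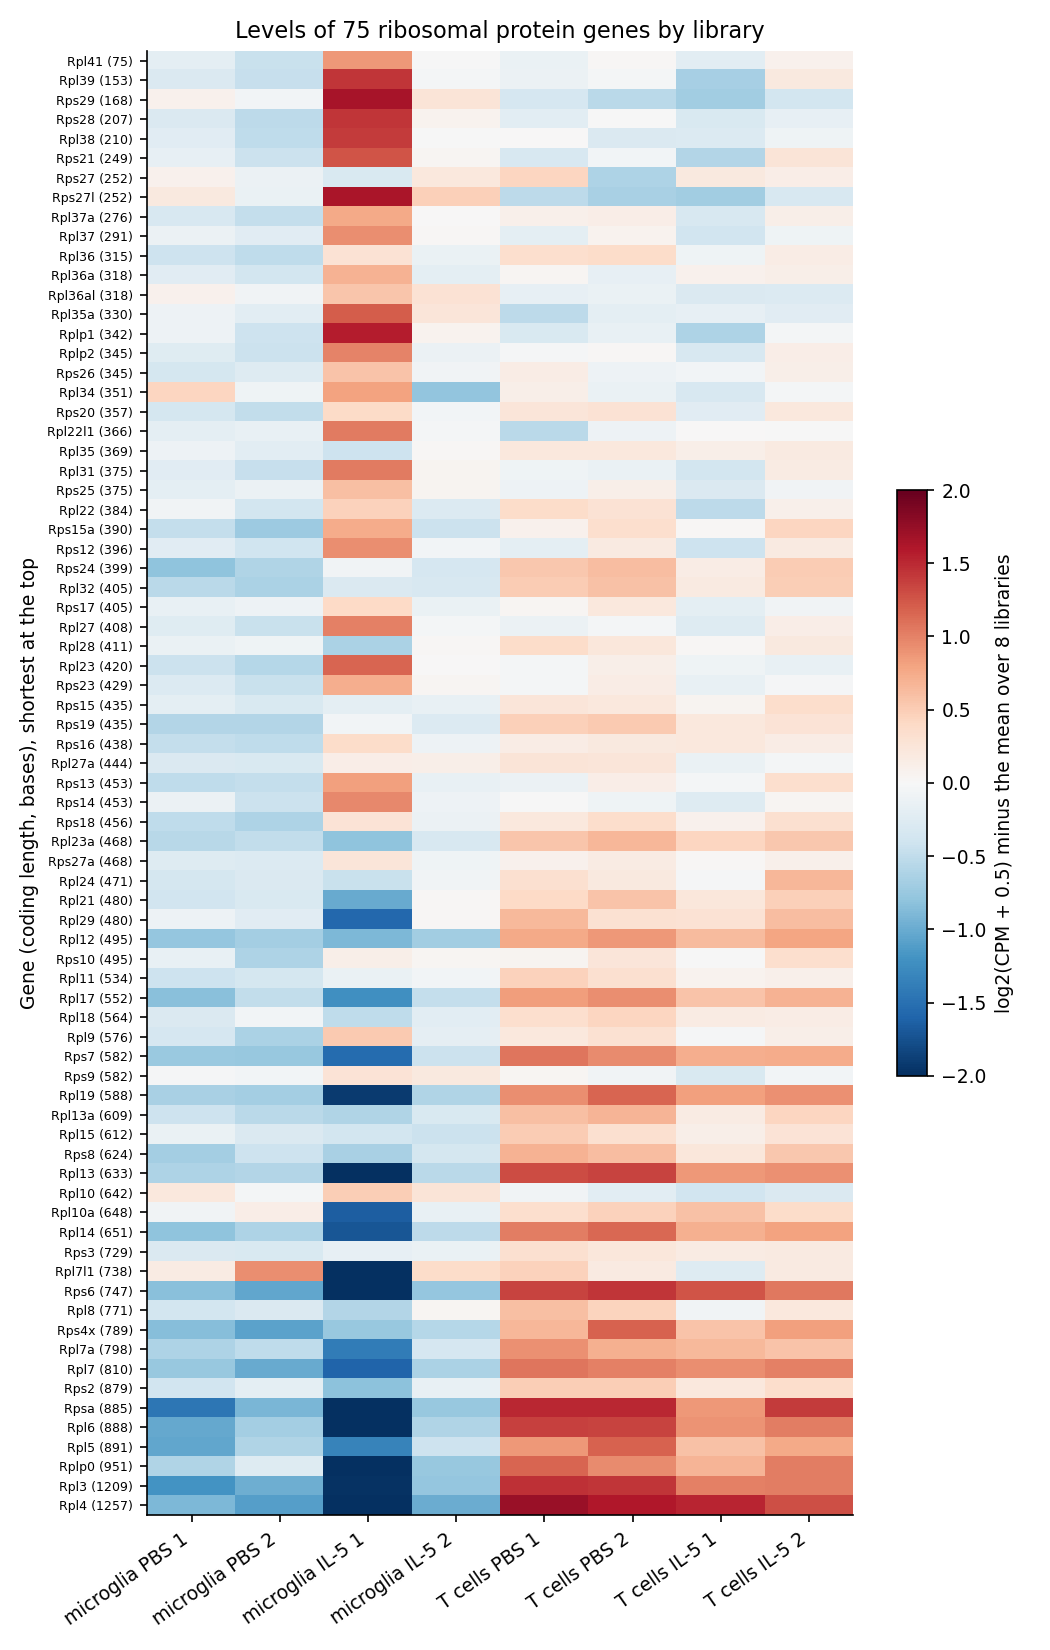
Rows are 75 of the 78 ribosomal protein genes with a mean of at least 5 CPM and an annotated coding sequence, ordered by coding length with the shortest at the top, and columns are the 8 libraries. Colour gives log2(CPM + 0.5) minus its mean over the 8 libraries, limited to 2 either way: most short genes at the top are red in microglia IL-5 replicate 1, and most long genes at the bottom are blue there and red in the T cell libraries.

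The first comparison asked what IL-5 did to these genes in microglia. None of the 83 genes tested passed in either direction (edgeR quasi-likelihood test, Benjamini-Hochberg adjustment over all genes, threshold 0.05), and 0% of the 13764 genes tested passed higher and 0% lower. Before adjustment, p was under 0.05 for 2 members above PBS and 0 below it, against 246 and 371 of all 13764 genes. DESeq2 called 0 members, against 0.131% of all genes higher and 0.356% lower. The median log2 fold change of the members was 0.47, against -0.02 over all genes tested, with 60 of 83 above 0. Small subunit genes had a median of 0.62 and large subunit genes 0.28.

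Counts of genes whose groups did not overlap gave the same direction. On TMM-scaled levels the pair of IL-5 libraries exceeded the pair of PBS libraries for 50 of 83 members (60.2%), against 17.4% of all genes tested. The reverse held for 4 members (4.82%), among them Rpl10a, Rplp0 and Rps4l, against 21.1% of all genes. On library-size scaling the members numbered 46 and 4, against 15% and 23.1%. With IL-5 replicate 2 alone set against both PBS libraries, 66 members lay above and 8 below, against 33.6% and 34.8% of all genes.

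The size of the difference was carried by short genes and by 1 library. All 28 short genes had a fold change above 0 (median 1.03), as did 22 of 26 middle genes (0.51) and 9 of 27 long genes (-0.06). Rps28, a short protein near the mRNA exit of the small subunit, measured 181 and 154 CPM with PBS, against 599 and 232 CPM with IL-5. Rpl38, a large subunit protein known for its part in translating Hox mRNAs, measured 197 and 162 CPM with PBS, against 613 and 229 CPM with IL-5. Rpl39, which lines the exit tunnel of the growing chain, measured 123 and 109.5 CPM with PBS, against 407 and 148 CPM with IL-5. In each of the 3, IL-5 replicate 1 lay far above the other 3 libraries, and IL-5 replicate 2 also lay above both PBS libraries. Their log2 fold changes were 1.55 (SE 0.61), 1.48 (SE 0.62) and 1.502 (SE 0.63), each with edgeR adjusted p = 0.964, and 0.45, 0.33 and 0.32 without IL-5 replicate 1.

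Rpl23, a large subunit protein that can bind Mdm2, measured 196 and 179 CPM with PBS, against 591 and 266 CPM with IL-5, and Rps27l 302 and 241 CPM with PBS, against 815 and 365 CPM with IL-5. The groups did not overlap for either gene, and neither passed (log2 fold changes 1.43, SE 0.56, and 1.35, SE 0.57, or 0.48 and 0.40 without IL-5 replicate 1). Rpl41 showed the same picture with 368 and 309 CPM with PBS, against 767 and 418 CPM with IL-5. So did Rps29, with 734 and 667 CPM with PBS, against 2159.8 and 822 CPM with IL-5.

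Long genes had the opposite order in IL-5 replicate 1. Rplp0, the base of the stalk that recruits elongation factors, measured 249 and 317 CPM with PBS, against 81.4 and 222 CPM with IL-5. Rpl4, a large protein that reaches into the exit tunnel, measured 194 and 168 CPM with PBS, against 40.3 and 183 CPM with IL-5. Rpl7l1, a paralog of Rpl7, measured 93.9 and 159.6 CPM with PBS, against 20.2 and 109 CPM with IL-5. For Rpl4 and Rpl7l1 IL-5 replicate 2 lay within the PBS range, and for Rplp0 both IL-5 libraries lay below it. Their log2 fold changes were -0.65 (SE 0.61), -0.94 (SE 0.70) and -0.82 (SE 0.48) for Rpl4, Rpl7l1 and Rplp0, and none passed. Without IL-5 replicate 1 they were -0.0092, -0.24 and -0.37. Rpl10a had -0.68 (SE 0.52) and Rps4l -0.72 (SE 0.50).

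The stalk shows the contrast inside 1 structure, since Rplp1 and Rplp2 bind Rplp0 as dimers. Rplp1 stood at 5.53 and 3.49 times Rplp0 per kilobase in PBS microglia, at 53.9 times in IL-5 replicate 1 and at 6.97 times in IL-5 replicate 2. In T cells the ratio was 1.42 to 1.88 in all 4 libraries. Rplp2 stood at 3.93 and 2.70 times Rplp0 in PBS microglia, at 28.4 and 4.80 times in IL-5 microglia and at 1.34 to 1.66 times in T cells. The ratio of Rps29 to Rpl4 was 14.9, 15.6 and 17.7 in 3 microglia libraries, 211 in IL-5 replicate 1 and 1.62 to 2.37 in T cells.

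Without IL-5 replicate 2, so with IL-5 replicate 1 alone in its group, 30 members passed higher and 4 lower, against 3.57% and 4.85% of all genes. The lone library is then assumed to vary like the PBS libraries. The share of members lower was close to that of all genes. In that fit the rank correlation of fold change with coding length was -0.80 over 78 genes. Without IL-5 replicate 1 no member passed, the median was 0.22, and the rank correlation of fold change with coding length went from -0.79 to -0.27 over 78 genes. Genes that are no members, with coding lengths up to 1257 bases and not matched in length, gave -0.27 with all 4 libraries (5951 genes). With libraries adjusted for transcript length the median was -0.02. Choroid plexus markers summed to 34377 and 40878 CPM with PBS, against 56835 and 60655 CPM with IL-5 (10 of 10 genes measured, none at 0). Ttr made up most of these sums, at 39917 and 33495 CPM with PBS, against 55913 and 59213 CPM with IL-5. The other markers did not all move this way. Folr1 measured 196 and 227 CPM with PBS, against 123 and 343 CPM with IL-5, and Kl 100 and 60.0 CPM, against 172 and 126 CPM. The part of these markers, and that of the reads outside genes, was not tested. In bulk samples fewer cells of a type and less RNA per cell cannot be told apart.

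**Figure D4:**
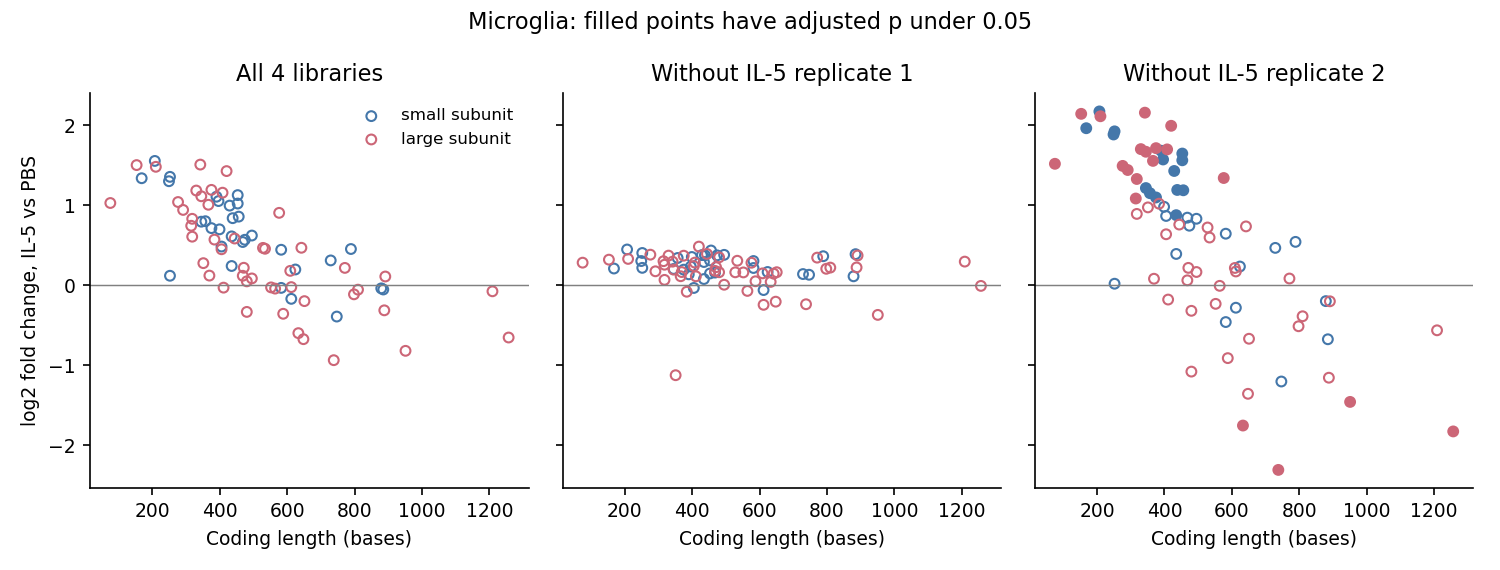
Each point is a ribosomal protein gene (78 genes), with coding length in bases across and log2 fold change of IL-5 against PBS in microglia upward, filled where the edgeR adjusted p is under 0.05. With all 4 libraries the points slope down with no filled point, without IL-5 replicate 1 they lie near a median of 0.22 apart from Rpl34, and without IL-5 replicate 2 the slope is steeper with 34 filled points.

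In T cells the same question gave smaller differences in the other direction. None of 81 genes tested passed (edgeR), with 0% of the 13897 genes passing in either direction. Before adjustment p was under 0.05 for 0 members above PBS and 1 below it, against 355 and 245 of all 13897 genes. DESeq2 called 2 members lower, Rpl3 and Rpl13, against 1.83% of all genes. The median log2 fold change was -0.12, against -0.01 over all genes, and 61 of 81 genes lay below 0. Of the long genes 25 of 26 lay below 0, with a median of -0.19, against 16 of 27 short genes with -0.02. The rank correlation of fold change with coding length was -0.51 over 78 members. Genes that are no members, with coding lengths up to 1257 bases and not matched in length, gave -0.03 (5815 genes).

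Rpl13 measured 995 and 1029 CPM with PBS, against 736 and 759 CPM with IL-5. Rpl3, which sits at the peptidyl transferase centre, measured 587 and 577 CPM with PBS, against 429 and 432 CPM with IL-5. Rpl8, another protein of that centre, measured 640.1 and 573 CPM with PBS, against 403 and 488 CPM with IL-5. The groups did not overlap for any of the 3, and both IL-5 libraries were lower. Their log2 fold changes were -0.39 (SE 0.15), -0.39 (SE 0.17) and -0.40 (SE 0.19), each with edgeR adjusted p = 0.9999. Rpl13a, which can leave the ribosome to silence inflammatory mRNAs, had -0.29 (SE 0.17).

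On the higher side no difference was much larger than its error. Rpl22l1, a paralog of Rpl22, had 0.35 (SE 0.32), Rps13 0.20 (SE 0.23), Rpl36a 0.21 (SE 0.26) and Rpl35a 0.20 (SE 0.31). Rpl30, at 0.227 and 1.01 CPM with PBS, against 2.31 and 1.24 CPM with IL-5, had 1.57 (SE 2.55).

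The pair of IL-5 libraries fell short of the pair of PBS libraries for 31 of 81 members (38.3%), against 17.3% of all genes tested, and above for 6 (7.41%), against 18.1%. IL-5 replicate 1 was the lowest T cell library for 65 of 82 members with a count, and without it the median was -0.03. Choroid plexus markers summed to 47679 and 68206 CPM with PBS, against 94427 and 96362 CPM with IL-5 (10 of 10 measured, none at 0). Ttr made up most of these sums, at 65068 and 45089 CPM with PBS, against 89983 and 91511 CPM with IL-5. T cell markers summed to 6628 and 7588 CPM with PBS, against 4322 and 5363 CPM with IL-5 (12 of 14 measured, none at 0). Their part in the difference was not tested.

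The difference between the 2 responses was tested in 1 fit of all 8 libraries. None of 83 members passed (edgeR), with 0% of 15397 genes passing in either direction. Before adjustment p was under 0.05 for 0 members above 0 and 2 below it, against 496 and 302 of all 15397 genes. DESeq2 called 0 members, against 0.857% of all genes above 0 and 0.357% below it. The median of the differences, T cell response minus microglia response, was -0.64, against 0.03 over all genes, and 70 of 83 members lay below 0. Rpl23 (-1.57, SE 0.64), Rps28 (-1.68, SE 0.70), Rpl37a (-1.23, SE 0.56), Rpl38 (-1.51, SE 0.72) and Rpl36 (-1.05, SE 0.49) had the smallest p values. Without microglia IL-5 replicate 1 these were -0.60, -0.55, -0.55, -0.34 and -0.58, and the median was -0.30, and without microglia IL-5 replicate 2, 7 members passed lower (Rpl23, Rpl37a, Rpl38, Rplp1, Rps14, Rps28 and Rps29), against 0.326% of all genes.

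The comparison of the cell types asked how T cells and microglia of the same treatment differ. In PBS mice 2 members passed higher in T cells, Rpl3 and Rpsa, out of 83 tested (2.57% of all 15397 genes passed higher), and 1 passed lower, Rps4l (4.6% of all genes passed lower). In IL-5 mice 4 passed higher, Rpl4, Rpl3, Rps6 and Rpsa (2.49% of all genes), and 11 lower (5.73% of all genes). The median log2 fold change was -0.15 in PBS mice, against 0.06 over all genes, and -0.77 in IL-5 mice, against 0.19 over all genes.

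The genes that passed higher in T cells all had long coding sequences. Rpl3 (chr15:80077791-80091868) measured 92.3 and 108 CPM in PBS microglia, against 587 and 577 CPM in PBS T cells. In IL-5 mice it measured 53.5 and 125 CPM in microglia, against 429 and 432 CPM in T cells. The cell types did not overlap in either treatment. Its log2 fold changes were 1.84 (SE 0.37, edgeR adjusted p = 0.0184) in PBS mice and 1.49 (SE 0.36, edgeR adjusted p = 0.0362) in IL-5 mice.

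Rpsa (chr9:120127689-120132369), also known as the laminin receptor, measured 60.0 and 86.5 CPM in PBS microglia, against 465 and 469 CPM in PBS T cells. In IL-5 mice it measured 36.2 and 97.1 CPM in microglia, against 300.1 and 432 CPM in T cells. Every T cell library lay above every microglia library. Its log2 fold changes were 1.98 (SE 0.43, edgeR adjusted p = 0.0256) and 1.68 (SE 0.43, edgeR adjusted p = 0.0426).

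Rpl4 (chr9:64173375-64178666) measured 194, 168, 40.3 and 183 CPM in microglia (PBS 1, PBS 2, IL-5 1, IL-5 2) and 1197, 1106, 1042 and 889 CPM in T cells. Rps6 (chr4:86854660-86857412), the small subunit protein phosphorylated by S6 kinase below mTOR, measured 77.8, 67.3, 24.9 and 80.7 CPM in microglia, against 355, 374, 332 and 289 CPM in T cells. The levels of the cell types did not overlap in either gene. In IL-5 mice they passed with 2.38 (SE 0.53, edgeR adjusted p = 0.0270) for Rpl4 and 1.80 (SE 0.45, edgeR adjusted p = 0.0407) for Rps6. Without microglia IL-5 replicate 1, Rpl3 and Rpl4 still passed in IL-5 mice, while Rps6 (1.24, edgeR adjusted p = 0.0529) and Rpsa (1.20, edgeR adjusted p = 0.0897) did not. In PBS mice Rpl4 had 1.97 (SE 0.52, edgeR adjusted p = 0.0544), Rps6 1.63 (SE 0.45, adjusted p = 0.0606) and Rpl7 1.22 (SE 0.34, adjusted p = 0.0656), short of the threshold. That fit shares its spread with microglia IL-5 replicate 1, which is no part of the PBS contrast. Fitted on the PBS libraries alone, Rpl4, Rps6 and Rpl7 passed, among 10 members higher (4.22% of all genes). Rpl3 and Rps6 shared 83.2% and 84.1% of their windows with other genes, Rpsa 48.5% and Rpl4 8.47%.

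The 11 genes lower in T cells of IL-5 mice were Rps27l, Rps29, Rpl10, Rpl36al, Rpl35a, Rps9, Rplp1, Rps28, Rpl37, Rps25 and Rpl38, of which 9 were short. Rps29 (chr12:69157722-69159186) measured 734, 667, 2159.8 and 822 CPM in microglia, against 547, 478, 428 and 535 CPM in T cells. Rps27l (chr9:66946086-66949516) measured 302, 241, 815 and 365 CPM in microglia, against 183, 167, 162 and 211 CPM in T cells. Every microglia library lay above every T cell library for both genes, with IL-5 replicate 1 highest. Their log2 fold changes in IL-5 mice were -2.56 (SE 0.52, edgeR adjusted p = 0.0200) and -2.58 (SE 0.49, edgeR adjusted p = 0.0147). In PBS mice Rps27l had -1.33 (SE 0.47, edgeR adjusted p = 0.131). It passed in the fit of the PBS libraries alone, among 5 members lower (7.62% of all genes).

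Rpl10, a late-joining protein next to the peptidyl transferase centre, measured 301, 253, 365 and 311 CPM in microglia, against 247, 225, 199.7 and 213 CPM in T cells. Its lowest microglia library lay just above its highest T cell library. Its log2 fold changes were -0.93 (SE 0.33, edgeR adjusted p = 0.132) in PBS mice and -1.58 (SE 0.33, edgeR adjusted p = 0.0233) in IL-5 mice. In the fit of the PBS libraries alone Rpl10 passed as well. Rps9 measured 627, 617, 769 and 733 CPM in microglia, against 653, 609, 516 and 611 CPM in T cells, which overlap on this scale. It passed with TMM scaling (-1.27, SE 0.31, edgeR adjusted p = 0.0364) and did not pass by library size. The other 6 named by the rule, Rpl36al, Rpl35a, Rplp1, Rps28, Rpl37 and Rps25, had log2 fold changes from -2.25 (Rplp1, SE 0.55) to -1.41 (Rps25, SE 0.37).

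Scaling sets how many members count as lower. TMM scaled T cell libraries by factors of 1.27 to 1.32 and microglia libraries by 0.638 to 0.819, so that equal CPM count as lower in T cells. With scaling by library size alone the median was 0.55 in PBS mice, where all genes had 0.75, and 0.11 in IL-5 mice. The median over members minus that over all genes was -0.21 in PBS mice with either scaling. By library size 17 members passed higher and 0 lower in PBS mice (5.97% and 2.44% of all genes), and 13 and 1 in IL-5 mice (6.22% and 2.18%). In IL-5 mice Rpl3, Rpl4, Rps6 and Rpsa passed higher by both scalings, and Rps27l was the 1 gene that passed lower by both.

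Which members passed also changed with the library left out, among all genes as among members. Each such fit leaves 1 library in a group, so effect sizes are given. In PBS mice the median log2 fold change ran from -0.26 to -0.14 with each of the 8 libraries left out in turn. The IL-5 libraries are no part of the PBS contrast and enter it only through the shared filter, scaling and spread. From the 4 PBS libraries alone, 10 members passed higher and 5 lower, against 4.22% and 7.62% of all genes. In IL-5 mice the median ran from -1.19, without microglia IL-5 replicate 2, to -0.50, without microglia IL-5 replicate 1. Without microglia IL-5 replicate 1, Rps27l had -1.68, Rps29 -1.48, Rpl10 -1.30 and Rps9 -1.09 in IL-5 mice. From the 4 IL-5 libraries alone, 0 members passed higher and 0 lower, against 0.32% and 1.22% of all genes.

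Over all libraries, all 4 T cell libraries lay above all 4 microglia libraries for 18 of 83 members on TMM-scaled levels (21.7%), against 14% of all genes, and below for 36 (43.4%), against 15.6%. Of the 18, 15 were long and 0 short, and of the 36, 22 were short and 4 long. By library size the numbers were 37 higher (44.6%, against 25.9%) and 7 lower (8.43%, against 8.14%). The 7 were Rpl10, Rpl36al, Rpl39l, Rpl3l, Rps27l, Rps29 and Rps4l. The rank correlation of the fold change with coding length was 0.70 in PBS mice and 0.81 in IL-5 mice over 78 members, and 0.69 in IL-5 mice without microglia IL-5 replicate 1. Genes that are no members, with coding lengths up to 1257 bases and not matched in length, gave 0.19 and 0.30 (6421 genes). All 14231 genes with a coding length gave 0.32 and 0.30. Neutrophil markers moved with cell type, at 14066 to 18361 CPM summed in microglia and 15.5 to 63.1 CPM in T cells (10 of 10 measured, 1 to 8 of them at 0 in each T cell library). Oligodendrocyte markers had the opposite order, at 228 to 850 CPM in microglia and 1662 to 2647 CPM in T cells (8 of 8 measured). Of these, Mbp, Mag and Mog overlapped on their own. Choroid plexus markers summed to 34377 to 60655 CPM in microglia and 47679 to 96362 CPM in T cells, which overlap. The part of these markers was not tested.

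**Figure D5:**
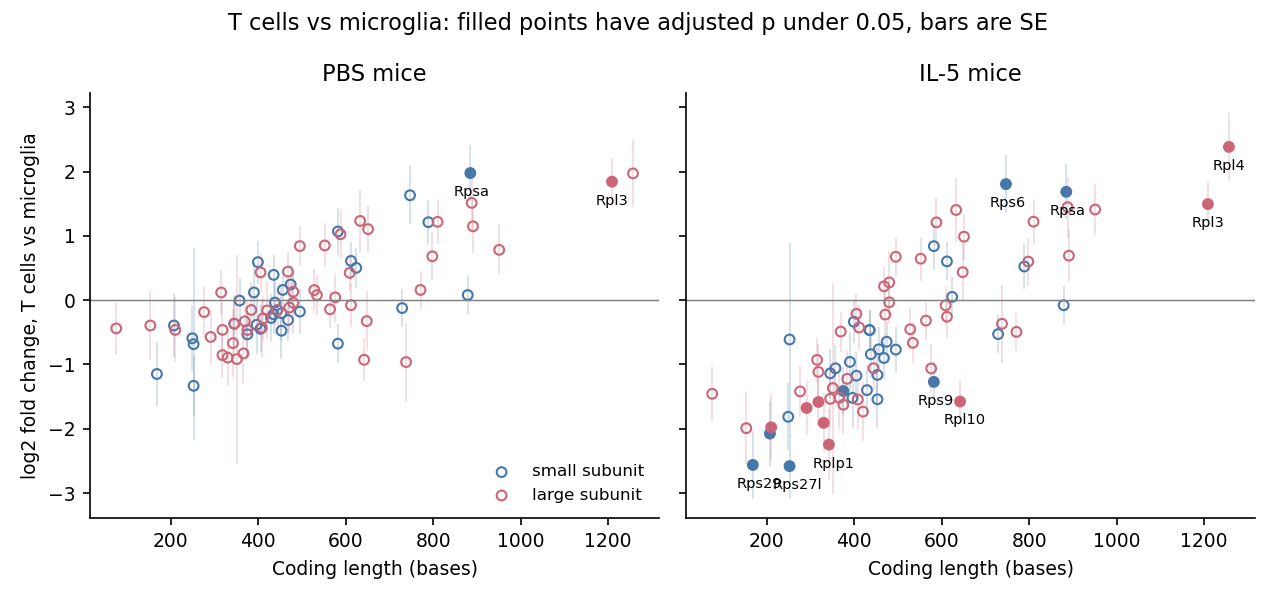
Each point is a ribosomal protein gene (78 genes), with coding length in bases across and log2 fold change of T cells against microglia upward (TMM scaling), with SE bars and filled where the edgeR adjusted p is under 0.05. In both panels the points climb with coding length, from Rps29 and Rps27l among the short genes to Rpsa, Rpl3 and Rpl4 among the long ones.

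Some paralogs and their partners had opposite patterns across the cell types. Rps4l, annotated as a pseudogene and related to Rps4x, measured 54.9, 41.8, 20.9 and 32.8 CPM in microglia, against 10.6, 8.55, 13.3 and 11.8 CPM in T cells. Rps4x, its X-linked partner, measured 63.7 to 90.4 CPM in microglia, against 199.8 to 306 CPM in T cells, so that the pair had opposite orders without overlap on this scale. The Rps4l fold change passed in PBS mice (-3.03, SE 0.65, edgeR adjusted p = 0.0240), and it shared 8.11% of its windows with another gene. Per kilobase Rps4l reached 0.296 to 0.827 of Rps4x in microglia and 0.0314 to 0.0749 in T cells.

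Rpl3l, known from striated muscle, measured 2.33, 8.76, 3.19 and 2.2 CPM in microglia and was at 0 in all 4 T cell libraries. Against 3 counts per library it was at least 48.2-fold lower in PBS T cells and at least 25.3-fold lower in IL-5 T cells, without passing the test. The PBS bound was 20.3-fold without microglia PBS replicate 2 and 76.2-fold without replicate 1. Rpl39l, known from the testis, measured 2.83, 8.51, 9.77 and 6.90 CPM in microglia, against 0, 0, 0 and 1.20 CPM in T cells, at least 49.2-fold lower in PBS T cells (24.6-fold without microglia PBS replicate 2, 73.9-fold without replicate 1). Neither gene shared a window with another gene. These levels were small beside the partners, with Rpl3 at 10.98 to 50.4 times Rpl3l and Rpl39l at 0.0207 to 0.0702 of Rpl39 per kilobase in microglia.

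Rpl7l1 stood at 0.220 to 1.16 of Rpl7 per kilobase in microglia and at 0.132 to 0.197 in T cells, with no overlap. Rpl22l1 stood at 2.84 to 4.59 times Rpl22 in microglia and at 1.64 to 4.47 times in T cells, which overlap. Rpl36al stood at 0.458 to 0.707 of Rpl36a in microglia and at 0.383 to 0.513 in T cells, which also overlap. Rpl22 and its paralog are exchangeable RNA-binding proteins of the large subunit.

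Members with known regulatory roles depended on the scale. Rpl5 and Rpl11, which with 5S RNA can hold the p53 ligase Mdm2, measured 29.5 to 56.4 and 146 to 187 CPM in microglia, against 113 to 171 and 205 to 269 CPM in T cells. Rps19, the gene most often mutated in Diamond-Blackfan anaemia, measured 331 to 482 CPM in microglia, against 576 to 717 CPM in T cells. Each of the 3 was higher in every T cell library on this scale, while with TMM scaling their log2 fold changes were 1.15, 0.08 and 0.39 in PBS mice for Rpl5, Rpl11 and Rps19. In IL-5 mice they were 0.69, -0.66 and -0.47, so that Rpl11 and Rps19 turned with the scaling, and none of the 3 passed. Rps27a, made as a fusion with ubiquitin, measured 191 to 274 CPM in microglia, against 236 to 260.3 CPM in T cells, which overlap (coefficient of variation 12.7% over 8 libraries). It overlaps the antisense gene Clhc1, and whether counting used strand is not given in the sources used here.

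Components left out by the naming rule had values of the same kind. Rps3a1, a small subunit protein, measured 134, 110.1, 78.01 and 144 CPM in microglia, against 566, 520.2, 426 and 401 CPM in T cells, and was higher in PBS T cells than in PBS microglia (1.46, SE 0.33, edgeR adjusted p = 0.0303). Rack1, a scaffold on the small subunit head, measured 71.0 to 175 CPM in microglia, against 378 to 476 CPM in T cells. Fau, a fusion that yields a small subunit protein, had the opposite order, with 239 to 279 CPM in microglia, against 204 to 233 CPM in T cells.

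Other genes of translation were read from lists. Of 18 factors with mRNAs of the same pyrimidine type, 6 passed higher in PBS T cells against PBS microglia and 0 lower, with all 18 above 0 and a median of 0.90. Over all genes 2.57% passed higher and 4.6% lower, with a median of 0.06, and the counts of the other lists in PBS mice stand beside the same shares. Eef1a1, which brings aminoacyl-tRNA to the ribosome, measured 210.2 and 227 CPM in PBS microglia, against 1888 and 1989 CPM in PBS T cells (2.45, SE 0.30, edgeR adjusted p = 0.00204). Eef2, the translocase, measured 70.2 and 119 CPM against 934 and 775 CPM (2.48, SE 0.39, edgeR adjusted p = 0.00629). Of 49 factors of ribosome assembly, 6 passed higher and 0 lower (median 1.16), led by nucleolin (Ncl; 51.6 and 38.9 CPM against 504 and 499 CPM). Of 31 other initiation and termination factors tested, 4 passed higher and 1 lower (median 0.84).

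Mitochondrial ribosomal proteins, 78 genes named Mrpl or Mrps, had 0 higher and 1 lower (median -0.38) in PBS mice and 0 and 9 (median -0.51) in IL-5 mice, where 2.49% of all genes passed higher and 5.73% lower (median 0.19). Of 18 genes of RNA polymerase I tested, 0 passed in PBS mice (median 0.20), and 2 passed higher and 3 lower in IL-5 mice (median 0.28). The 3 lower, Polr2f, Polr2h and Znrd1, measured 283, 127 and 231 CPM in microglia IL-5 replicate 1, against 119, 54.0 and 86.1 CPM in replicate 2. Mrpl52, Mrps18c and Mrpl14, with the smallest p of the 9, measured 285, 231 and 191 CPM, against 157, 125 and 106 CPM. The list counts in IL-5 mice include replicate 1 and were not refitted without it. Of 20 regulators of ribosomal protein genes or mRNAs, 0 passed higher and 1 lower (median 0.32), Eif4ebp1, the translation repressor that mTOR switches off, at 121 and 109.8 CPM in PBS microglia, against 38.4 and 43.9 CPM in PBS T cells (-2.18, SE 0.38, edgeR adjusted p = 0.0100). Of the 18 pyrimidine factors 4 passed higher and 0 lower in T cells of IL-5 mice. Of the assembly factors 3 and 1 passed there, and of the other initiation and termination factors 3 and 2, beside the same 2.49% and 5.73%. Among the regulators 0 and 1 passed there. For IL-5 against PBS in either cell type, and for the difference of responses, 0 genes of any of these lists passed, as was so for all genes.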

How the data were processed

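The authors deposited a table of unscaled read counts with 24953 gene entries and 1 column for each of 8 libraries. The submitters' processing notes name STAR 2.5.3a, DESeq2 1.1, Cufflinks 2.0, FastQC 1.0.0 and bcl2fastq 2.20.0.422, and the builds GRCm38 and mm10. The counting tool, strand setting and handling of reads with several matches are not given in the sources used here. The 2 summary entries (reads outside genes, 15.2% to 25.5%, and ambiguous reads, 1.39% to 1.77%) and 27 genes with unreadable cells were left out, none of them a member, leaving 24924.

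Counts were tested with edgeR 4.0.16 (R 4.3.3; TMM, filterByExpr with a minimum count of 10, robust quasi-likelihood F test, two-sided), with Benjamini-Hochberg adjustment over all genes at 0.05. IL-5 against PBS was fitted within each cell type, and the other contrasts in 1 fit of 8 libraries. The SE is the absolute log2 fold change over the square root of F. Levels are CPM by library size. Lengths and windows came from GENCODE M21 (24390 symbols matched, all 85 members), with coding length from the APPRIS principal transcript. Values per library relative to others used a pseudocount of 0.5 CPM and a mean of at least 5 CPM. Floors reflect counting error alone, because PCR copies could not be told from molecules. The fit was tested on simulated data.

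Named genes were, per comparison, members past the threshold (at most 10 per direction by smallest p), or the 5 with the smallest p in a direction where fewer than 3 passed. The 5 highest and 5 lowest per kilobase and a fixed set of paralogs, stalk and regulatory members were added, and up to 3 genes per list. Rpl38 and other members of counts of 11 or fewer were named after their values were seen, as were Rpl34, Rpl7a and the coding length classes. Some genes that the rule names are not reported here. The members and lists were chosen with earlier results of these data known. Alternatives were DESeq2 1.42.0, other scalings, filters, length and GC offsets, a replicate block, other library sets and each library left out.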

Additional observations from a re-analysis of the deposited data

How the results depend on the processing

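For IL-5 against PBS in microglia the median log2 fold change of the members was 0.29 by library size, 0.21 with a coding length offset, and turned to -0.16 when scaled to the members and -0.0213 with a transcript length offset. In T cells DESeq2 called 2 members lower, and the median was 0.0193 scaled to the members and -0.23 with the transcript length offset. The median difference of responses was -0.45 by library size, 0.21 scaled to the members, -0.21 with the transcript and -0.49 with the coding length offset.

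Between the cell types in PBS mice, members higher and lower numbered 8 and 4 with DESeq2 (7.96% and 10.5% of all genes), 17 and 0 by library size (5.97% and 2.44%), 0 and 0 scaled to the members (1.23% and 3.14%), 5 and 2 without a filter (3.52% and 5.94%), 16 and 0 with the transcript length offset (1.95% and 4.46%), and 10 and 5 from those 4 libraries alone (4.22% and 7.62%). The coding length offset gave 18 higher (1.68%) and the GC offset 0 lower (5.08%). The median turned to 0.55 by library size, 0.54 with the transcript and 0.60 with the coding length offset. In IL-5 mice the numbers were 9 and 32 with DESeq2 (7.49% and 11.2%), 13 and 1 by library size (6.22% and 2.18%), 0 and 1 scaled to the members (2.47% and 1.8%), 14 and 1 with the transcript length offset (1.86% and 4.7%), 12 and 0 with the coding length offset (1.51% and 3.88%), 0 and 0 from those 4 libraries alone (0.32% and 1.22%), and 25 lower without a filter (6.85%). The median turned to 0.11 by library size, 5.266e-05 scaled to the members, 0.36 with the transcript and 0.20 with the coding length offset, and Rps25 turned to 0.0701 with the transcript length offset. The causes were not tested.

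Same-numbered libraries correlated at 0.00775 to 0.0400 in their deviations. The labels do not say whether they shared animals, a sort or a batch, and these correlations cannot decide it. With a replicate block, 3 members passed higher and 4 lower in IL-5 mice, against 1.9% and 4.43% of all genes. In PBS mice 2 and 1 passed, against 2.05% and 4.01% of all genes. In the other comparisons 0 members and 0% of all genes passed. With the block the medians were 0.45 and -0.12 for IL-5 in microglia and T cells.

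Leaving out 1 library at a time gave 0 to 30 members higher and 0 to 4 lower for IL-5 in microglia (median 0.22 to 0.74), and 0 in T cells (median -0.22 to -0.03). Of all genes, 0% to 3.57% passed higher and 0% to 4.85% lower in microglia. The difference of responses had 0 to 7 lower (median -0.89 to -0.30), with Rpl39l between -0.76 (without T cells IL-5 replicate 2) and 6.85 and Rpl7l1 between -0.0797 (without microglia IL-5 replicate 1) and 1.94. For this difference 0% to 0.326% of all genes passed lower. T cells against microglia had 0 to 11 members higher and 0 to 6 lower in PBS mice. There 0.809% to 5.01% of all genes passed higher and 2.11% to 7.22% lower. In IL-5 mice the members numbered 0 to 11 and 0 to 39 (median -1.19 to -0.50). The shares of all genes there were 0.61% to 6.2% and 1.72% to 7.13%. Each of these fits leaves 1 library in a group, which is assumed to vary like the others.

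Without the 10 most abundant other genes the members' share was 2.09%, 1.96%, 3.58% and 2.40% in microglia and 3.16%, 3.15%, 2.67% and 3.10% in T cells. The median member level was 271 CPM per kilobase of transcript, 109 by merged exon length and 445 by coding length. The coding length offsets, and the counts, trends and bounds without single microglia libraries, were chosen after seeing the data. With 2 libraries a group, 1 library can decide a call, and multiply matching reads limit the level of genes with many copies.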
